A study of Mus musculus with 8 samples.

Results

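Syndecans and glypicans are the cell-surface proteoglycans that carry heparan sulfate, and 8 of their genes were followed here in the left ventricle of the mouse: Sdc1, Sdc2, Sdc3 and Sdc4 among the syndecans and Gpc1, Gpc3, Gpc4 and Gpc6 among the glypicans. They were taken by gene name from a table of 55679 genes. The animals were male wild-type C57BL/6J mice that carried a subcutaneous osmotic mini-pump for 7 days. The control group (n = 4) received saline and the ANG II group (n = 4) received angiotensin II at 1500 ng/kg/min, a dose that raises blood pressure, and ventricles of both groups were taken after the hearts had been flushed with saline. Expression was measured by RNA-seq of polyadenylated RNA as FPKM, a fragment number scaled by transcript length and by the depth of the library. The age of the mice was not given in the sources used here, and each library is taken as 1 animal.

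The core protein of a syndecan crosses the membrane and ends in a short cytoplasmic tail, whereas that of a glypican is held on the outer face of the membrane by a lipid anchor. Long sulfated sugar chains on both families bind growth factors, chemokines and matrix proteins, present them to signalling receptors, and help cells to grip the matrix. Proteases can cut the core proteins near the membrane and release the ectodomain with its chains, and in the pressure-loaded heart syndecans are known as links between the matrix, the cytoskeleton and calcineurin signalling.

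Depth was alike in the 8 libraries, with 14455650 to 16564700 fragments each. Of 19364 genes tested with limma, 15.4% were called, which means an adjusted p-value under 0.05 and an absolute log2 fold change above 0.5. Higher calls made up 14.0% of the tested genes and lower calls 1.41%. Over all tested genes the log2 fold change had a median of 0.15 as deposited, and median-of-ratios scaling brought it to 0.0042, so changes are also given relative to that median. Mitochondrially encoded genes took 28.9 to 30.2% of all FPKM in control and 22.1 to 24.6% in ANG II. All 5 cardiomyocyte markers were expressed in every library, at a summed level of 22028 to 22548 FPKM in control against 16382 to 17462 in ANG II. Of these, Myh6 (mean 10367 against 7102 FPKM) and Tnni3 (5522 against 3697 FPKM) were called lower. Tnnt2, Actn2 and Ryr2 were not called, with log2 fold changes of -0.12, 0.03 and 0.05. As the samples are bulk tissue, fewer cells of a type, less RNA per cell and a change of single genes cannot be told apart.

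Of the 8 genes, 4 were called higher in ANG II and 0 were called lower. The called genes were Sdc1, Sdc2 and Sdc3 among the syndecans and Gpc6 among the glypicans, so the share called was 4 of 8 against 15.4% of all tested genes. As the 8 genes were chosen with earlier results of these data known, this share is a description only. Sdc1 and Gpc6 rose to 2.86 and 2.62 times their control means, Sdc3 to 1.70 times and Sdc2 to 1.497 times. Gpc4 was 1.37 times its control mean with an adjusted p-value under the threshold but a log2 fold change below 0.5, and Sdc4, Gpc1 and Gpc3 did not pass the test. At adjusted p alone, 5 of 8 genes passed, against 33.3% of all tested genes, and the 2 groups did not overlap at 5 of 8 genes, against 33.7%. An unadjusted p under 0.05 with a lower mean was found for 0 of the 8, and voom on the recovered fragments also called 0 lower. The median log2 fold change was 0.48 over the 8 genes, 0.66 over the syndecans and 0.37 over the glypicans, against 0.15 over all tested genes.

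**Figure D1:**
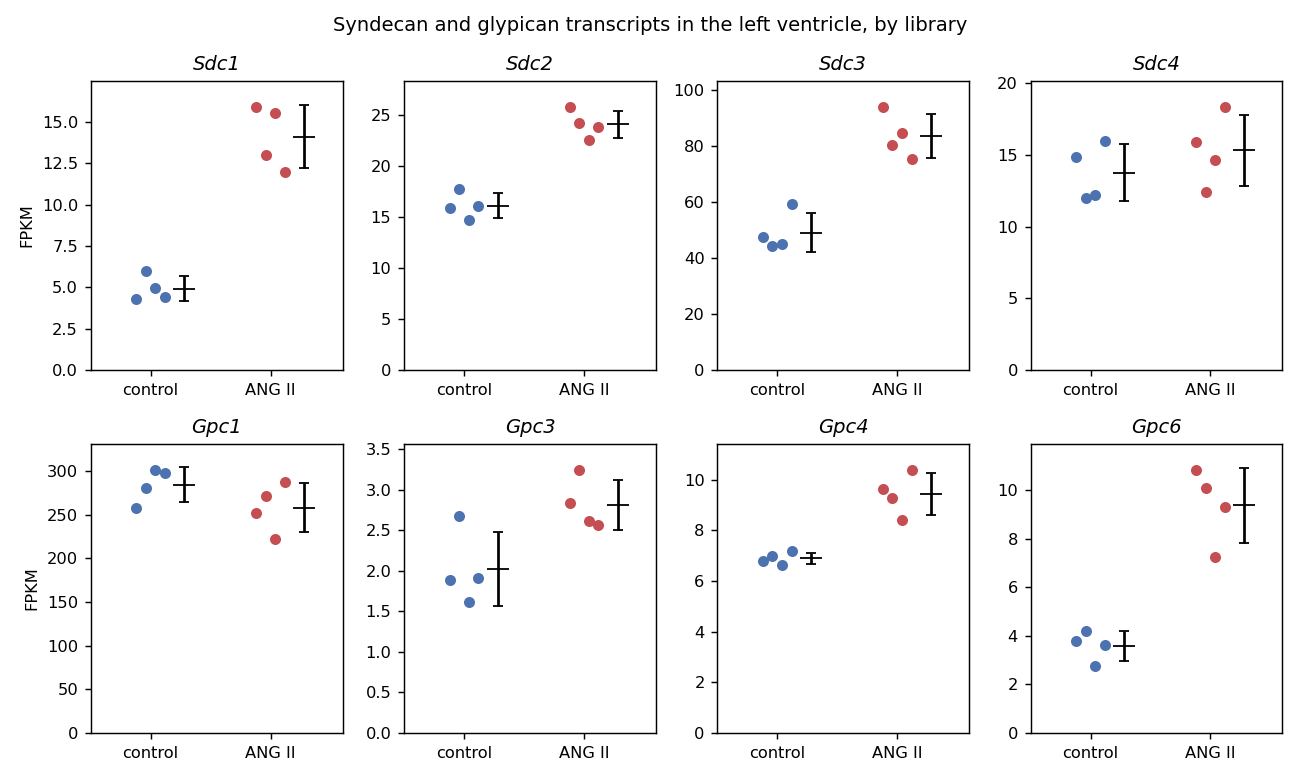
FPKM of the 8 genes in each of the 8 libraries, with control in blue and ANG II in red, the vertical axis of each panel starting at 0, and the black cross and bar giving the mean and SD of 4 libraries. All ANG II points lie above all control points for Sdc1, Sdc2, Sdc3, Gpc4 and Gpc6, and the groups overlap for Sdc4, Gpc1 and Gpc3.

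The cytoplasmic tail is known as a conserved part of the syndecan core, and it is where the cytoplasmic partners described further on attach. The last 60 coding bases of each gene, stop codon included, were read from GENCODE M21 on GRCm38 in the direction of the gene, and capitals mark the bases that are identical in all 4.
Sdc1 (chr12:8791748-8791807, plus strand): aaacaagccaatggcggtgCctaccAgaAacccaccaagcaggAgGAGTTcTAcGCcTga
Sdc2 (chr15:33032481-33032540, plus strand): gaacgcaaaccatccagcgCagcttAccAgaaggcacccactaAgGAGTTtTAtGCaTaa
Sdc3 (chr4:130822750-130822809, plus strand): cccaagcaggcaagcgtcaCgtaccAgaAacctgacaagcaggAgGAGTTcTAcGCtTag
Sdc4 (chr2:164426086-164426145, minus strand): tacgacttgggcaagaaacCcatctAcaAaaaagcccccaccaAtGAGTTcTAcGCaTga
Of the 60 positions, 14 were identical in the 4 genes, and 9 of these fell in the run that encodes the final glutamate, phenylalanine, tyrosine and alanine before the stop codon. That end is the site which syntenin, the PDZ protein encoded by Sdcbp, is known to bind. Sdc1 and Sdc3 were the most alike pair in this stretch with 38 of 60 identical bases, Sdc2 and Sdc4 followed with 31, and the other pairs shared 22 to 26. By their coding sequence the cores differ more in size, with 311 codons in Sdc1, 202 in Sdc2, 442 in Sdc3 and 198 in Sdc4. Adjacent serine and glycine codons, the pair at which glycosaminoglycan chains can be attached, numbered 5, 3, 8 and 3 in the same order.

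Sdc1 showed the largest fold change of the 8 genes. It encodes the syndecan of epithelia and plasma cells, and lies on chromosome 12 (8771323 to 8793715, plus strand, GRCm38; ENSMUSG00000020592). Its level was 4.31, 6.0, 4.96 and 4.43 FPKM in control libraries 1 to 4 and 15.9, 13.01, 15.5 and 12 FPKM in ANG II libraries 1 to 4. Even the lowest ANG II library stood far above the highest control library. These levels rested on 91 to 128 fragments per control library and 280 to 352 per ANG II library. The mean went from 4.92 ± 0.771 to 14.1 ± 1.90 FPKM (mean ± SD, n = 4 per group), which is 1.35 on the log2 scale (SE 0.119, 95% interval 1.08 to 1.62; limma adjusted p = 4.28e-05), or 1.20 relative to the median of all tested genes. An exact two-sided permutation test over the 70 allocations of 8 libraries gave p = 0.0286, the smallest it can give. Since Sdc1 also marks plasma cells, the summed level of 6 plasma and B cell markers is given beside it: 4.80 to 9.0 FPKM in control against 8.94 to 15.9 in ANG II, with 1 of 5 tested markers called higher and 1 lower. Its part in the result was not tested.

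Sdc2 encodes the syndecan of mesenchymal and endothelial cells and lies on chromosome 15 (32920723 to 33034935, plus strand; ENSMUSG00000022261). Control libraries 1 to 4 held 15.8, 17.7, 14.7 and 16.1 FPKM and ANG II libraries 1 to 4 held 25.7, 24.2, 22.6 and 23.8 FPKM. The spread within each group was small and the groups lay well apart. Its level thus rose from 16.1 ± 1.23 to 24.1 ± 1.31 FPKM (mean ± SD, n = 4 per group), by 0.55 on the log2 scale (SE 0.0689, with a limma adjusted p of 2.74e-04; exact permutation p = 0.0286). Relative to the median of all tested genes the change was 0.41, and under median-of-ratios scaling it was 0.34 with a limma adjusted p of 0.0040, below the fold change threshold, so the call depended on scaling while the direction did not.

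Sdc3, a syndecan best known from nerve and muscle progenitors, had the highest deposited FPKM of its family. By the other transcript length given below its mean was still the highest of the family in both groups, by a small margin over Sdc2 in control. It lies on chromosome 4 (130792537 to 130826319, plus strand; ENSMUSG00000025743). FPKM values were 47.5, 44.5, 44.9 and 59.4 in control libraries 1 to 4 and 93.8, 80.3, 84.6 and 75.4 in ANG II libraries 1 to 4. Control library 4 was the highest of its group and ANG II library 4 the lowest of its own, and the 2 groups still did not overlap. The mean rose from 49.1 ± 7.02 to 83.5 ± 7.82 FPKM (mean ± SD, n = 4 per group; log2 fold change 0.76, SE 0.0991; limma adjusted p = 3.58e-04; exact permutation p = 0.0286), and the change relative to the median was 0.61. Opposite-strand genes cover 7.73% of its exon bases, and they were listed at no more than 0.114 FPKM in any library.

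Sdc4 encodes the widely expressed syndecan of focal adhesions, where it works with integrins on fibronectin. It lies on chromosome 2 (164424247 to 164443887, minus strand; ENSMUSG00000017009). Control libraries 1 to 4 were at 14.9, 11.99, 12.2 and 15.9 FPKM and ANG II libraries 1 to 4 at 15.9, 12.4, 14.6 and 18.3 FPKM. The 2 groups covered much the same range. The means were 13.7 ± 1.96 and 15.3 ± 2.47 FPKM (mean ± SD, n = 4 per group), and the log2 fold change of 0.14 had a 95% interval of -0.14 to 0.42 (limma adjusted p = 0.421; exact permutation p = 0.400). Relative to the median of all tested genes it was at -0.0050, and its sign turned with scaling, to -0.072 under median-of-ratios scaling and -0.10 by quantile normalization. The interval reaches down to a small decrease and up to 0.42, so a change of the size of that of Sdc3 lies outside it.

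Sdc1 and Sdc4 were thus the syndecans with the largest and the smallest change, and sequence before their start sites in RefSeq (GRCm38.p6) is shown for that reason, 5′ to 3′ along the gene, with GC boxes (GGGCGG on either strand) in capitals. For Sdc1 the stretch ends where the first exon begins in GENCODE M21, 73 bases before the RefSeq start. For Sdc4 all 250 bases lie within the bounds of the gene in GENCODE M21, where a longer transcript starts farther upstream, but in none of its exons.
Sdc1 (chr12:8771146-8771322, plus strand): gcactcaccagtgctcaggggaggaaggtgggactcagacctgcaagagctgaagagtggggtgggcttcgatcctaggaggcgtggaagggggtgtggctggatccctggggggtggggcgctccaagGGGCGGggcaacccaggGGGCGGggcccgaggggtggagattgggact
Sdc4 (chr2:164443189-164443438, minus strand): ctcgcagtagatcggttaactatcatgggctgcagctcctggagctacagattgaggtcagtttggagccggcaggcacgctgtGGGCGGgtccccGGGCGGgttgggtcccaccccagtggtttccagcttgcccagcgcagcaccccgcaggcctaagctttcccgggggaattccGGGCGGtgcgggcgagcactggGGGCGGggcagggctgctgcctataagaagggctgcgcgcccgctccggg
The 177 bases before Sdc1 held 2 GC boxes and 68.4% G and C bases, and the 250 bases before Sdc4 held 4 GC boxes and 68.0%. These stretches differ in length, and the full 250 bases before the RefSeq start of Sdc1 held 3 GC boxes and 66.0%. A GC box was present in 35.7% of all 32851 RefSeq promoter windows of 300 bases. The whole windows of both genes were searched on either strand for 4 other motifs, AP-1 (TGANTCA, in 7.81% of all windows), TEAD (GGAATG, 14.7%), SMAD (CAGACA, 21.0%) and a TATA box (TATAAA, 13.6%), and these letters were not found in them. Windows were also at hand for Sdc3, Gpc3 and Gpc4, of which Sdc3 had 1 SMAD match and Gpc4 1 TEAD match, and each of the 3 had at least 1 GC box. Sdc2, Gpc1 and Gpc6 had no entry.

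The sum of the 4 syndecans rose from 83.8 ± 8.37 to 137.04 ± 10.2 FPKM (mean ± SD, n = 4 per group), without overlap between groups. Sdc3 carried 58.4 ± 2.70% of the sum in control and 60.9 ± 1.80% in ANG II, which overlapped. The share of Sdc1 went from 5.95 ± 1.28% to 10.3 ± 0.859% and that of Sdc4 from 16.4 ± 1.299% to 11.2 ± 2.01%, and for both the groups lay apart. Sdc1 stood at 0.290, 0.5005, 0.406 and 0.278 times Sdc4 in control libraries 1 to 4 and at 0.998, 1.05, 1.06 and 0.656 times Sdc4 in ANG II libraries 1 to 4. This ratio was higher in every ANG II library than in any control library. Ratios within a library do not change when all its values are multiplied by 1 factor, but those between genes rest on the transcript length used. With the length of the transcript that has the longest coding sequence in place of the mean over all transcripts, Sdc3 carried 37.6 ± 2.74% of the sum in control and 41.0 ± 1.93% in ANG II. Sdc2 then carried 36.6 ± 3.17% in control, close to Sdc3, and 34.9 ± 1.64% in ANG II, below Sdc3 in all 4 libraries. Sdc1 then stood at 0.258 ± 0.0736 times Sdc4 in control and at 0.657 ± 0.134 times in ANG II, below Sdc4 in all 8 libraries, and the groups still lay apart. No test was run on these sums and shares.

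**Figure D2:**
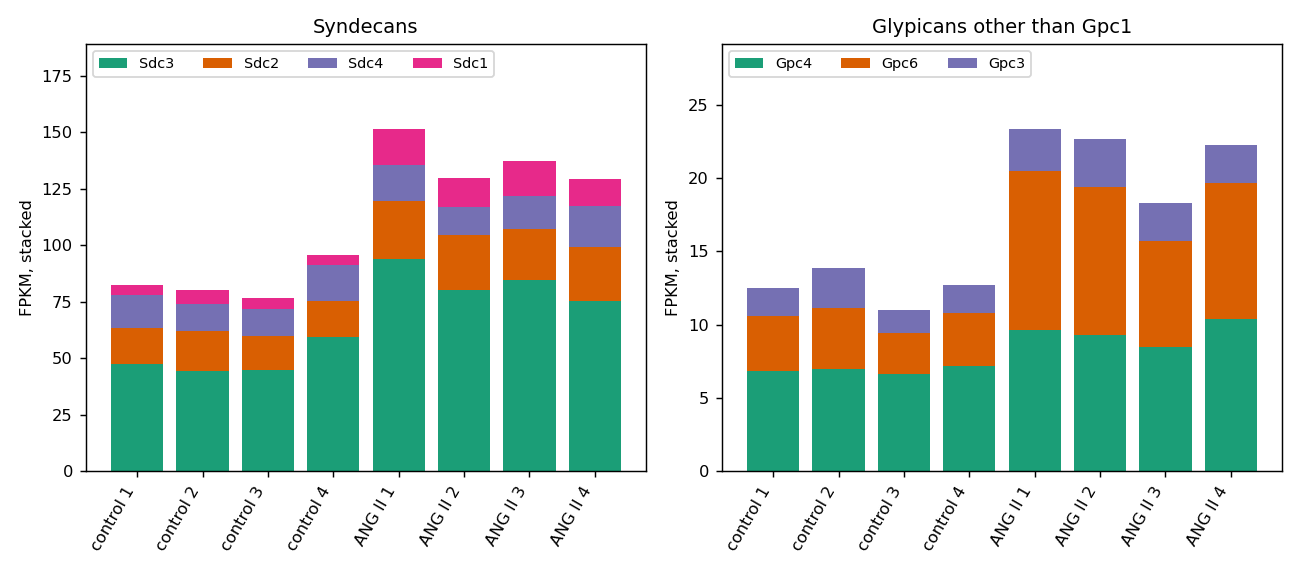
FPKM stacked by gene in each library, for the 4 syndecans on the left and for Gpc4, Gpc6 and Gpc3 on the right, with both vertical axes starting at 0. The syndecan sum lies between 76.8 and 95.9 FPKM for control and between 129.5 and 151.4 for ANG II, and the sum of the 3 glypicans between 11.01 and 13.8 and between 18.3 and 23.3 FPKM.

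Gpc1, the glypican of most adult tissues and a co-receptor for fibroblast growth factors, was the most abundant of the 8 genes in every library. It lies on chromosome 1 (92831645 to 92860779, plus strand; ENSMUSG00000034220). Its FPKM values were 257, 281, 301 and 298 in control libraries 1 to 4 and 253, 271, 222 and 288 in ANG II libraries 1 to 4. The groups overlapped, with ANG II library 3 below all others. The means were 284.6 ± 20.2 and 258.4 ± 28.2 FPKM (mean ± SD, n = 4 per group), and the log2 fold change was -0.14 (SE 0.0839, 95% interval -0.33 to 0.04; limma adjusted p = 0.225; exact permutation p = 0.200). Under median-of-ratios scaling the same comparison gave -0.37 with a limma adjusted p of 0.0125, still short of the fold change threshold. Exons of Ankmy1 on the opposite strand cover 18.9% of the Gpc1 exon bases, and Ankmy1 was listed at no more than 0.0945 FPKM.

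Gpc6 was the only glypican called. Its product is known as a regulator of Wnt and hedgehog signals in the growing skeleton, and the gene spans 1051230 bases of chromosome 14 (116925315 to 117976544, plus strand; ENSMUSG00000058571). Control libraries 1 to 4 held 3.78, 4.18, 2.74 and 3.61 FPKM and ANG II libraries 1 to 4 held 10.8, 10.1, 7.27 and 9.29 FPKM. Library 3 was the lowest of both groups, and every ANG II library exceeded every control library. The mean rose from 3.58 ± 0.608 to 9.37 ± 1.54 FPKM (mean ± SD, n = 4 per group; log2 fold change 1.18, SE 0.137, 95% interval 0.87 to 1.48; limma adjusted p = 1.96e-04; exact permutation p = 0.0286), on 133 to 179 fragments per control library and 322 to 481 per ANG II library. Relative to the median of all tested genes the change was 1.03.

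Gpc4 and Gpc3 are neighbours on chromosome X and are transcribed from the same strand. Gpc4 (52053021 to 52165252, minus strand; ENSMUSG00000031119), which like Gpc6 is known as an astrocyte factor in synapse formation, was at 6.81, 6.97, 6.65 and 7.18 FPKM in control libraries 1 to 4 and at 9.65, 9.30, 8.43 and 10.4 FPKM in ANG II libraries 1 to 4. All ANG II libraries lay above the narrow control range. The difference between means of 6.90 ± 0.226 and 9.44 ± 0.813 FPKM (mean ± SD, n = 4 per group) passed the p threshold but not the fold change threshold (log2 fold change 0.40, SE 0.0780; limma adjusted p = 0.00345; exact permutation p = 0.0286). It fell to 0.20 with a limma adjusted p of 0.0835 under median-of-ratios scaling, and to 0.12 by quantile normalization.

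Gpc3 (52272426 to 52613950, minus strand; ENSMUSG00000055653), whose loss causes overgrowth in mouse and human, was the lowest of the 8 genes. Its values were 1.89, 2.67, 1.62 and 1.91 FPKM in control libraries 1 to 4 and 2.83, 3.25, 2.62 and 2.57 FPKM in ANG II libraries 1 to 4, on 55 to 106 fragments each. Control library 2 lay within the ANG II range and the other 3 control libraries below it. Means of 2.03 ± 0.453 and 2.82 ± 0.309 FPKM (mean ± SD, n = 4 per group) gave a log2 fold change of 0.34 (95% interval 0.06 to 0.62; limma adjusted p = 0.0621; exact permutation p = 0.0857). Without control library 2 the log2 fold change was 0.44 (limma adjusted p = 0.0170), and under quantile normalization it was 0.04 (limma adjusted p = 0.864). The remaining glypicans of the mouse were hardly detected: Gpc2 had 0 to 7 fragments per library and was not tested, and Gpc5 was listed at 0 in all 8 libraries.

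Because Gpc1 made up 95.8 ± 0.543% of the glypican sum in control and 92.3 ± 0.526% in ANG II, that sum followed Gpc1, with 297.1 ± 19.8 FPKM in control against 279.98 ± 29.9 in ANG II (mean ± SD, n = 4 per group) and overlapping groups. The 3 other glypicans together went from 12.5 ± 1.16 to 21.6 ± 2.25 FPKM, with the groups apart. Gpc6 stood at 0.554, 0.600, 0.412 and 0.504 times Gpc4 in control libraries 1 to 4 and at 1.12, 1.09, 0.862 and 0.894 times Gpc4 in ANG II libraries 1 to 4. The ratio of Gpc1 to Gpc4 was lower in every ANG II library, with a mean of 41.3 ± 3.14 in control and 27.3 ± 1.40 in ANG II. With the length of the transcript that has the longest coding sequence, Gpc1 made up 87.6 ± 1.51% and 78.2 ± 1.33% of the glypican sum and stood at 13.4 ± 1.02 and 8.90 ± 0.456 times Gpc4, and for both the groups again lay apart. Gpc6 then stood at 0.626 ± 0.0974 times Gpc4 in control. In ANG II libraries 1 to 4 it stood at 1.36, 1.31, 1.04 and 1.08 times Gpc4, above it in every one. Between the families, the ratio of Sdc1 to Gpc6 was 1.40 ± 0.298 in control and 1.55 ± 0.403 in ANG II and the groups overlapped. It turned to 0.536 ± 0.114 and 0.591 ± 0.154 with that other length, where the groups overlapped as well. The glypican core has a conserved set of cysteines, and the coding sequences held 19 cysteine codons in Gpc1, Gpc3 and Gpc4 and 17 in Gpc6, against 0 to 2 in the syndecans.

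**Figure D3:**
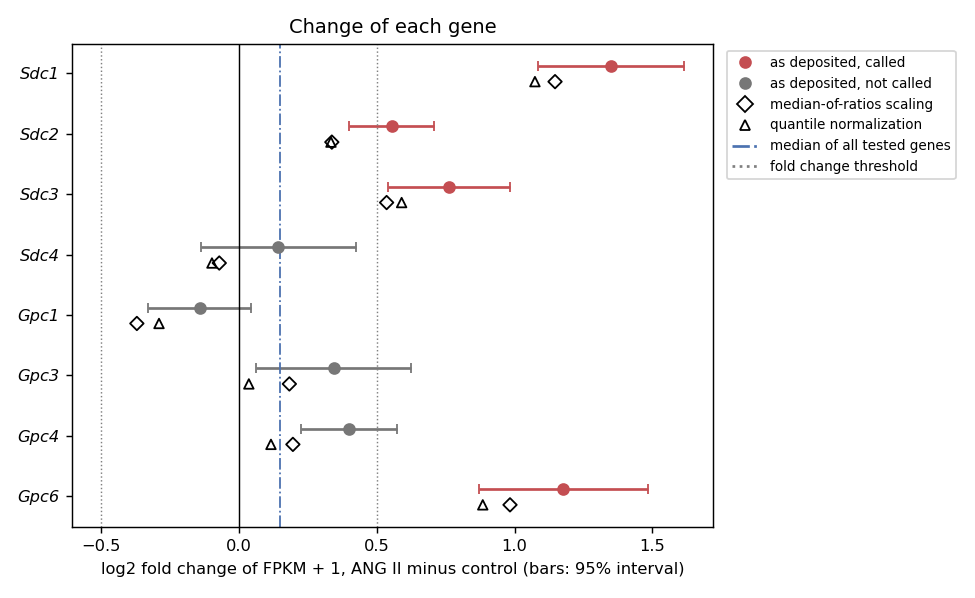
Log2 fold change of FPKM + 1, ANG II minus control, for each gene, with circles and 95% intervals for the values as deposited (red where called, grey where not), diamonds for median-of-ratios scaling and triangles for quantile normalization; dotted lines mark the fold change threshold of 0.5 in both directions and the blue line the median of all tested genes. Sdc1, Sdc3 and Gpc6 stay above 0.5 under both scalings, Sdc2 drops to 0.34 and 0.33, and Sdc4 crosses 0.

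In control the order of levels by mean FPKM was Gpc1, Sdc3, Sdc2, Sdc4, Gpc4, Sdc1, Gpc6 and Gpc3, and among neighbours in that order only Sdc2 and Sdc4 overlapped over the libraries. In ANG II it was Gpc1, Sdc3, Sdc2, Sdc4, Sdc1, Gpc4, Gpc6 and Gpc3, where Sdc4 overlapped with Sdc1 and Gpc4 with Gpc6. The deposited FPKM divides by the mean length of all annotated transcripts of a gene, which is 1358.8 bases for Gpc1 although its only coding transcript has 4176 bases. With the length of the transcript that has the longest coding sequence, Gpc1 was still the highest, at 92.6 in control and 84.1 in ANG II. Sdc3 then came to 16.6 FPKM in control, next to Sdc2 at 16.1 FPKM, and Sdc1 to 2.28 FPKM, below Gpc6 at 4.33 FPKM. In ANG II, Sdc1 came to 6.53 FPKM, below Gpc6 at 11.3, Sdc4 at 10.1 and Gpc4 at 9.44 FPKM. Levels between genes therefore depend on the length chosen, whereas the ratio of a gene's FPKM between the groups does not.

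The genes with the most similar profile were sought over the 8 libraries among 12939 genes, by the root mean square distance between log2(FPKM + 1) values centred on the control mean. For Sdc1 they were Cd109 (distance 0.081) and Myo5a (0.099), and for Sdc2 Tmem165 and Parva (0.027 each). Shisa5 (0.074) and Arf3 (0.087) came nearest to Sdc3, and Gm20457 (0.056) and Angptl1 (0.080) to Sdc4. Among the glypicans, Gpc1 was nearest to Tsc2 and Ttn (0.048 each), Gpc3 to Tmem64 (0.068) and Gtpbp6 (0.069), Gpc4 to Zbtb4 (0.034) and Stk4 (0.039), and Gpc6 to Vgll3 (0.074) and Chpf (0.079). Chpf, whose product polymerises chondroitin sulfate, is also in a list described below. Between the 8 genes themselves, Sdc2 and Gpc4 lay closest (0.13) and Sdc1 and Gpc1 farthest apart (1.08).

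Markers of several cell types moved with the 4 genes called higher. Of 6 fibroblast markers 5 were called higher, with a summed level of 335 to 468 FPKM in control against 1189 to 1338 in ANG II, and so were 4 of 4 markers of activated fibroblasts, from 30.6 to 65.4 up to 586 to 965 FPKM. All 6 macrophage markers were called higher (104 to 130.1 against 252 to 336 FPKM), as were 4 of 4 markers of dividing cells (4.67 to 9.60 against 21.8 to 53.7 FPKM) and 4 of 4 erythroid genes (96.7 to 484 against 577 to 2067 FPKM). Endothelial markers were called higher in 1 of 6 cases (369 to 421 against 422 to 499 FPKM), and cardiomyocyte markers were called lower in 2 of 5. Of 3 tested atrial markers 1 was called higher and 2 had groups apart, with a summed level of 1.16 to 48.8 against 52.5 to 230.5 FPKM. Of 3 tested genes listed for skeletal muscle 2 were called higher (summed level 980.1 to 1453 against 1006 to 1967 FPKM), Acta1 and Tnnt3. The third, Ckm, was lower in all ANG II libraries but not called (log2 fold change -0.39; limma adjusted p = 0.00384). Nearly all of that sum was Acta1 (mean 463 against 1108 FPKM) and Ckm (662 against 507 FPKM). Myh1 averaged 0 FPKM in control and 0.017 in ANG II, so the list is not read as a sign of skeletal muscle. Smooth muscle markers were called higher in 1 of 4 cases (95.6 to 164 against 102 to 129 FPKM), and of 4 pericyte markers 1 was called higher and 1 lower (441 to 467 against 466 to 513 FPKM). By limma 0 of 11 mesothelial, Schwann cell and adipocyte markers were called, 1 had an unadjusted p under 0.05, and voom called 1. Of all these markers, Myh4 of skeletal muscle was at 0 in every library. Their part in the changes of the syndecans and glypicans was not tested.

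The wider pathway was read from 13 lists with 154 genes, of which 139 were tested. In ANG II 63 of the 139 were called higher and 0 lower, or 45.3% against 15.4% of all tested genes, and the median log2 fold change was 0.43. Of those with a lower mean, 5 had an unadjusted p under 0.05 and 4 an adjusted p under 0.05 by limma, and voom on the recovered fragments called 1 lower. The count became 41 higher and 5 lower under median-of-ratios scaling and 37 higher and 5 lower by quantile normalization. Of all tested genes, 8.63% were called higher and 4.15% lower under the first of these scalings, and 7.31% higher and 5.08% lower under the second. The lists were chosen with earlier results of these data known, so a high share of calls may be built in. They describe this pathway only, and no test of a list was run. For comparison with the counts of single lists below, 15.4% of all tested genes were called as deposited. Under median-of-ratios scaling this share was 12.8%, and by quantile normalization 12.4%.

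Among 6 tested proteoglycans outside the 8 genes, 4 were called higher. Col18a1, the collagen XVIII chain of basement membranes, rose from 5.13 ± 0.945 to 19.0 ± 4.54 FPKM (mean ± SD, n = 4 per group; log2 fold change 1.69), Cspg4, the NG2 proteoglycan of pericytes, from 4.85 ± 0.760 to 8.54 ± 0.908 FPKM (0.71), Srgn, the granule proteoglycan serglycin, from 43.3 ± 5.32 to 67.2 ± 3.46 FPKM (0.63) and Hspg2, the basement membrane proteoglycan perlecan, from 74.1 ± 4.52 to 110.7 ± 14.2 FPKM (0.56). Median-of-ratios scaling ended the calls of Srgn and Hspg2, and quantile normalization those of Cspg4, Srgn and Hspg2.

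The heparan sulfate chain is built on the core protein by several sets of enzymes in the Golgi. Of 7 linkage region enzymes 2 were called higher, Xylt1, which adds the first sugar to the core, from 1.15 ± 0.188 to 3.09 ± 0.472 FPKM (log2 fold change 0.93) and its paralog Xylt2 from 11.5 ± 1.34 to 16.7 ± 2.07 FPKM (0.50), and the list median was 0.15, that of all tested genes. Fam20b, the kinase of that region and the most abundant of the list, was at 33.7 ± 2.00 and 33.4 ± 1.02 FPKM. Of 5 polymerases 1 was called, Ext1, from 12.4 ± 0.693 to 21.5 ± 1.41 FPKM (0.74), while its partner Ext2 was at 27.6 ± 1.47 and 34.1 ± 1.94 FPKM, a log2 fold change of 0.30 below the threshold. Extl1, named after its values were seen, was at 14.6 ± 0.561 and 11.4 ± 0.588 FPKM. It was lower in every ANG II library than in any control library but not called (-0.33; limma adjusted p = 0.00299). Under median-of-ratios scaling and by quantile normalization the polymerase list held 1 higher and 1 lower. None of the 3 tested genes for N-sulfation and epimerisation was called by limma or by voom, although 2 had an unadjusted p under 0.05. These 2, Ndst1 and Ndst2, also passed after adjustment (limma adjusted p = 0.00837 and 0.00449) and missed only the fold change threshold. Ndst1, the most abundant of the 3, was at 23.1 ± 1.29 and 28.4 ± 1.93 FPKM (0.28). Medians of the linkage and polymerase lists fell to -0.03 each under median-of-ratios scaling, so no direction is given for these lists.

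Of 7 O-sulfotransferases 2 were called higher, Hs6st2 from 0.336 ± 0.0889 to 1.47 ± 0.366 FPKM (log2 fold change 0.88) and Hs2st1 from 5.77 ± 0.597 to 9.36 ± 0.520 FPKM (0.62), while Hs6st1 was at 7.66 ± 0.576 and 9.09 ± 1.14 FPKM. Of 8 genes for the sulfate donor and sugar precursors 2 were called, the synthase Papss1 (0.63) and the Golgi carrier Slc35b2 (0.58), and Ugp2, the most abundant, was at 279.95 ± 45.0 and 277.6 ± 35.9 FPKM. Median-of-ratios scaling ended the calls of Xylt2, Hs2st1, Papss1 and Slc35b2. Under that scaling and by quantile normalization, 1 of the 7 O-sulfotransferases and 0 of the 8 donor and precursor genes were called. Of all tested genes, 15.4% were called as deposited, and 12.8% and 12.4% under these scalings.

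The finished chain is trimmed at the cell surface by a few enzymes. Sulf1, a sulfatase that removes 6-O-sulfate outside the cell, was at 11.05, 12.8, 9.29 and 12.05 FPKM in control libraries 1 to 4 and at 38.2, 35.1, 36.2 and 33.3 FPKM in ANG II libraries 1 to 4. Those groups lay far apart, by 1.58 on the log2 scale (SE 0.0914, with a limma adjusted p of 4.70e-06). Its paralog Sulf2 rose from 27.7 ± 2.40 to 50.5 ± 6.57 FPKM (0.84) and Hpse, the heparanase that cleaves the chain, from 0.481 ± 0.108 to 1.36 ± 0.279 FPKM (0.66), which made 3 of 4 tested genes of this list. The call of Hpse was lost under quantile normalization. Of 8 lysosomal enzymes that break the chain down 3 were called, Gusb (0.84), Naglu (0.75) and Sgsh (0.64). Sgsh was no longer called under median-of-ratios scaling, and neither Sgsh nor Naglu by quantile normalization.

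Syndecans can also carry chondroitin sulfate, and 8 of 15 tested enzymes of that chain were called higher, with a list median of 0.69. Dse, the epimerase that makes dermatan sulfate, rose from 7.68 ± 0.694 to 21.8 ± 2.38 FPKM (log2 fold change 1.39), Chpf from 9.82 ± 1.18 to 22.6 ± 2.74 FPKM (1.12) and Chst12, a 4-O-sulfotransferase, from 2.83 ± 0.514 to 6.62 ± 1.496 FPKM (0.98). The count was 8 with a median of 0.54 under median-of-ratios scaling, and 6 with a median of 0.40 by quantile normalization.

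Of 10 tested proteases known to shed syndecans 5 were called higher. Mmp14, a membrane-bound metalloproteinase, was at 15.5, 17.1, 13.9 and 14.5 FPKM in control libraries 1 to 4 and at 76.3, 62.9, 73.8 and 69.3 FPKM in ANG II libraries 1 to 4, with no overlap and a difference of 2.14 on the log2 scale (SE 0.0798, with a limma adjusted p of 1.21e-06). Mmp2, a gelatinase, rose from 53.0 ± 7.52 to 203.96 ± 38.1 FPKM (1.91) and Mmp3, a stromelysin, from 2.81 ± 0.748 to 9.95 ± 3.35 FPKM (1.49). Mmp15, another membrane-bound metalloproteinase, named after its values were seen, was at 47.9 ± 4.01 and 33.8 ± 1.34 FPKM, with ANG II below control in all libraries (-0.49; limma adjusted p = 4.05e-04). It was just short of a call as deposited and was called lower under median-of-ratios scaling (-0.71), by quantile normalization (-0.67), without the mitochondrially encoded and 10 most abundant genes (-0.63) and by voom (-0.50). The list then held 4 higher and 1 lower under median-of-ratios scaling and 5 higher and 1 lower by quantile normalization. Transcripts of proteases and of their substrates were measured, and shedding itself was not.

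On the inner side of the membrane, 9 of 22 tested partners of the syndecan tail and of focal adhesions were called higher. They included Actn1, an actin cross-linker, from 19.1 ± 3.24 to 51.2 ± 5.60 FPKM (log2 fold change 1.39), Msn, which ties membrane proteins to actin, from 101.1 ± 5.13 to 183.8 ± 18.0 FPKM (0.85), and the kinase Src from 1.98 ± 0.398 to 4.31 ± 0.224 FPKM (0.84). Sdcbp, picked after its values were seen because its product binds the conserved end shown above, rose from 76.5 ± 2.67 to 121.1 ± 9.58 FPKM (0.65; limma adjusted p = 6.11e-05). Its log2 fold change was 0.43 under median-of-ratios scaling and 0.47 by quantile normalization, which ended the call. The count for this list was 3 of 22 under each of these scalings, a share near that of all tested genes, which was 12.8% and 12.4%.

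Of 20 tested ligands that bind heparan sulfate 10 were called higher. Fn1, the matrix protein fibronectin to which Sdc4 attaches cells, rose from 15.6 ± 1.98 to 205.1 ± 21.5 FPKM (log2 fold change 3.63), Tnc, a matricellular protein, from 0.450 ± 0.110 to 13.5 ± 5.27 FPKM (3.25) and Ptn, the growth factor pleiotrophin, from 1.99 ± 0.791 to 25.6 ± 6.50 FPKM (3.15). Vegfa, the most abundant ligand, was at 424.6 ± 100.4 and 347.4 ± 61.9 FPKM (limma adjusted p = 0.275). The list was uneven, since under median-of-ratios scaling 6 ligands were called higher and 3 lower, and by quantile normalization 7 higher and 3 lower.

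Of 24 tested receptors that work with these proteoglycans 14 were called higher, with a median of 0.59. The count was 10 with a median of 0.46 under median-of-ratios scaling, and 9 with a median of 0.39 by quantile normalization. The integrin subunits Itgb3 and Itgb5 rose from 0.757 ± 0.114 to 3.13 ± 0.366 FPKM (log2 fold change 1.23) and from 78.8 ± 10.6 to 166.5 ± 25.3 FPKM (1.07), and the Wnt receptor Fzd2 from 1.24 ± 0.423 to 4.01 ± 1.07 FPKM (1.15). Itgb1, the most abundant of the list and the integrin chain that Sdc4 works with on fibronectin, rose from 278.7 ± 12.5 to 415.6 ± 23.4 FPKM (0.57), a call that median-of-ratios scaling ended. Sdc4 itself, beside these partners, was at 13.7 and 15.3 FPKM as given above.

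**Figure D4:**
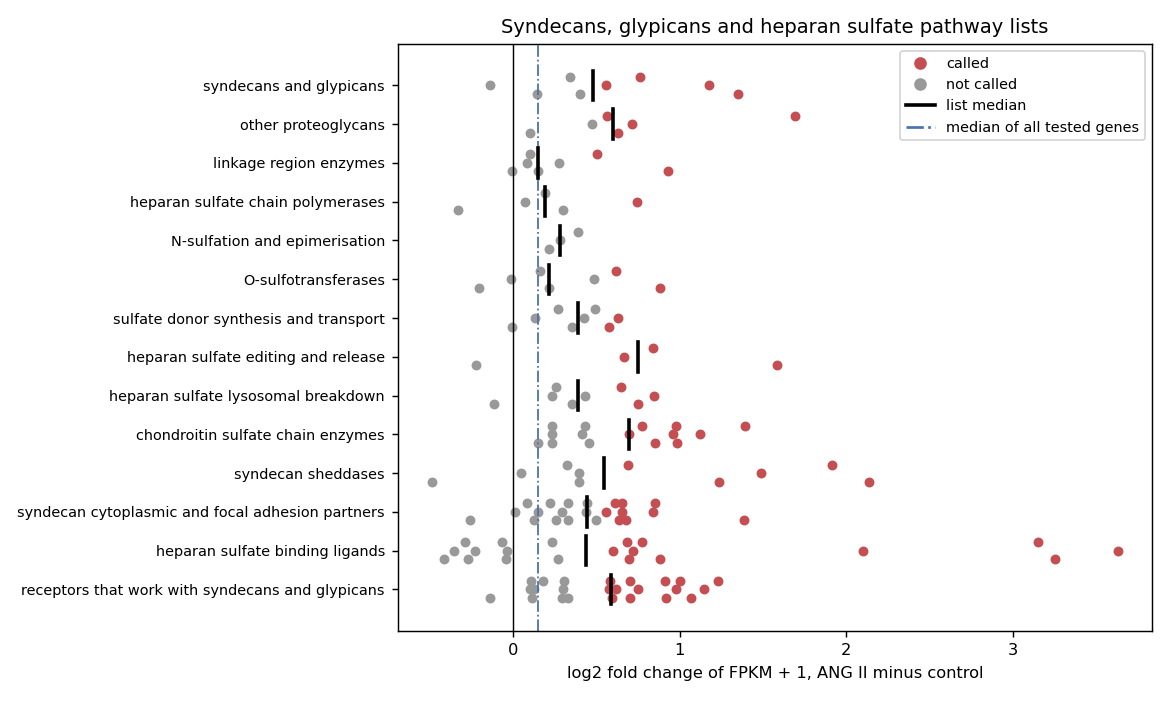
Log2 fold change of FPKM + 1, ANG II minus control, for every tested gene of the 8 syndecans and glypicans (top row) and of the 13 pathway lists, with called genes in red, other genes in grey, a black bar for the median of each row and a blue line for the median of all tested genes. Medians run from 0.15 for the linkage region enzymes to 0.75 for heparan sulfate editing and release, and the called genes all lie to the right of 0.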

How the data were processed

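The 8 left ventricles sequenced, 4 control and 4 ANG II, were grouped by their treatment labels. The authors deposited 1 table of FPKM values, with 1 column per library. The submitters' processing notes name Bowtie2, HISAT and RSEM without roles or versions, and the build, the annotation and the use of strand are not given in the sources used here. Annotation came from GENCODE M21 (GRCm38) and promoter windows from RefSeq (GRCm38.p6). The study's text gives 16 replicates per group, and its text names another series of RNA-seq data besides this one. Only the 8 libraries at hand were analysed, and that other series was not analysed here.

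The 8 genes and the pathway and marker lists were chosen with earlier results of these data known. Deposited FPKM was turned to log2(FPKM + 1), genes averaging 0.1 FPKM or more were kept (19364 of 55679), and the groups were compared with limma 3.58.1 in R 4.3.3 (lmFit, eBayes with a variance trend, two-sided, Benjamini-Hochberg over all tested genes), without a replicate block. Intervals for fold changes are 95% and hold 1 gene at a time. Fold changes on this scale understate those of low genes. On simulated data the script recovered 138 of 200 genes changed 3-fold and called 4 unchanged genes. Of 200 genes changed 1.5-fold it recovered 0, and it called 2 unchanged genes. A gene that was not called may therefore still have changed. An exact permutation test, two-sided, was added for single genes. FPKM multiplied by the mean transcript length gave whole multiples of a unit particular to each library, and 99.3% of 25157 values under 60 fragments of genes with 1 exon and 97.8% of 56842 of genes with several exons came out whole within 0.05. Fragment numbers come from these multiples and cover counting error only. Whether libraries are separate animals is not stated for each, and p-values measure the spread between them.

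All 8 genes are named, with up to 3 called genes of largest absolute log2 fold change and the most abundant gene of each pathway list. A gene that this rule picks is not reported here singly, and the counts keep it. Alternatives were another pseudocount, filter, scaling, threshold or variance model, a replicate block, and each library left out, and voom on the recovered fragments, with and without median-of-ratios scaling, was chosen after the data had been seen. Python 3.11.15, numpy 2.4.6, pandas 2.3.3 and matplotlib 3.10.9 were used.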

Additional observations from a re-analysis of the deposited data

Results flagged for a closer look

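A library far from the 3 others of its group was looked for among 140 sets of 4 values, by the gap to the nearest library divided by the range of the group, against Dixon's 95% limit. It was found in 10 sets, and chance alone flags about 1 in 20. Among the syndecans, the ratio of Sdc3 to Sdc4 was 3.19 in control library 1 and 3.68 to 3.73 in the other controls (gap share 0.914). In ANG II library 4, where Sdc4 was highest, the ratio of Sdc1 to Sdc4 was 0.656 against 0.998 to 1.06 (0.843) and Sdc3 made up 58.2% of the syndecan sum against 61.6 to 62.0% (0.904).

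For the pathway genes in control, the separate library was low for Hs6st2 at 0.204 FPKM (gap share 0.884) and Chst12 at 2.07 FPKM (0.843), both in library 3, and high for Slc35b2 at 16.8 FPKM (0.856), Fzd2 at 1.87 FPKM (0.833) and Itgb1 at 297.4 FPKM (0.906), the last 3 in library 2. In ANG II, Ext2 was low in library 2 at 31.2 FPKM against 35.0 to 35.1 FPKM (0.972), and Itgb5 was low in library 3 at 128.5 FPKM against 178.7 to 179.9 FPKM (0.978). Of the 8 syndecan and glypican levels themselves, taken in each group, 0 were past the limit.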

How the results depend on the processing

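Over 18 alternatives, Sdc1 (log2 fold change 1.07 to 1.51), Sdc3 (0.54 to 0.85) and Gpc6 (0.88 to 1.40) were called in all, and Sdc2 (0.33 to 0.60) in 14. Sdc2 fell under the fold change threshold under median-of-ratios scaling (0.34), quantile normalization (0.33), rescaling without mitochondrially encoded genes and the 10 most abundant genes (0.41) and voom with median-of-ratios scaling (0.35). Sdc4 turned to -0.072, -0.099 and -0.076 under median-of-ratios scaling, quantile normalization and voom with median-of-ratios scaling (limma adjusted p = 0.711, 0.587 and 0.728). Gpc1 (-0.37 to -0.07), Gpc3 (0.04 to 0.50) and Gpc4 (0.12 to 0.45) were called in none. Above an absolute log2 fold change of 1, 795 of all genes, 2 of the 8 (Sdc1 and Gpc6) and 17 pathway genes were called, and with no fold change threshold 6447, 5 and 98. Higher genes made up 90.8% of all calls as deposited, 67.5% under median-of-ratios scaling, 59.0% under quantile normalization and 78.7% without the mitochondrially encoded and most abundant genes. With a replicate block 2968 of all genes, 4 of the 8 and 63 pathway genes were called. The numbers do not pair the libraries, as deviations of libraries with the same number correlated at -0.03 to 0.06 and 1 of 4 control libraries correlated best with its own number. Depth limits Gpc2, Gpc5 and, at 55 to 106 fragments, the precision of Gpc3.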
